A study of Mus musculus with 2 samples.

Results

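The genes described here are 10 transcriptional targets of p53: Mdm2, Ccng1, Zmat3, Trp53inp1, Bax, Aen, Eda2r, Phlda3, Gdf15 and Sesn2. Cdkn1a, the target most often used as a p53 readout, is given only for reference. The genes were chosen by symbol, and each matched 1 of the 27998 gene rows of the count tables. They were followed in the retinal pigment epithelium (RPE), in matrix-rich pigment cells, in surface epithelium and in macrophages, all from RPE and choroid preparations of C57BL/6J mice. Mice of the NaIO3 group received sodium iodate, an oxidant that damages the RPE, at 20 mg/kg into a vein, and mice of the PBS group received the same volume of phosphate-buffered saline. Per the labels the treatment lasted 7 days, and the eyes of 6 mice were pooled in each group; the labels state neither age nor sex. After digestion with dispase II the front of the eye and the neural retina were taken off, and brown hexagonal cells were picked under a microscope. Each group is 1 droplet library, so no difference below has a replicate check, and every interval is a 95% interval that covers counting error only.

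p53 is a transcription factor that is held at a low level in unstressed cells by Mdm2, which marks it for degradation. After DNA damage or other stress it is stabilised and raises genes that stop the cell cycle, start cell death, adjust metabolism or act back on p53 itself. The RPE is a layer of pigmented cells that do not normally divide and that support the photoreceptors. Gdf15 and Sesn2 are also targets of ATF4, the transcription factor of the integrated stress response, so they are not specific to p53.

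The PBS library held 4618 barcodes and 51055592 unique molecular identifiers (UMIs, 1 per captured RNA molecule), and the NaIO3 library held 4058 barcodes and 51168520 UMIs. The libraries shared 24 barcodes. After filtering, 4216 PBS and 3812 NaIO3 cells remained in 27 clusters. RPE-like cells, named from their markers, numbered 3405 in PBS and 2254 in NaIO3. Surface epithelium-like cells, which carry keratins of cornea and conjunctiva, numbered 97 and 679, and macrophage-like cells 99 and 466. Matrix-rich pigment cells formed 1 cluster of 212 cells, all from the NaIO3 library, whose leading genes included Col1a1, Tagln, Cthrc1 and Cdkn2a. The p53 genes were left out of the genes used for clustering. Median UMIs per cell were 11296 and 9462 in RPE-like cells of PBS and NaIO3, 12503 and 9087 in surface epithelium-like cells, 4150 and 11782.5 in macrophage-like cells, and 25250.5 in matrix-rich pigment cells. Levels below are in CPM, the UMIs of a gene as a share of all UMIs summed over the cells of a class, on the usual scale, which removes the difference in depth.

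The name of the matrix-rich pigment cells holds only in part. The cluster passed 2-fold for 13 of 14 matrix genes and for 3 of 7 pigment genes, and the pigment genes summed to 924 CPM against 2004 CPM for RPE-like and 211 CPM for surface epithelium-like cells of the same library. The RPE markers summed to 7565 CPM, close to the sums in surface epithelium-like (7431 CPM) and macrophage-like cells (6981 CPM) and far below that in RPE-like cells (83286 CPM). The sum was carried by Ttr, the transthyretin gene (4514 CPM), which with Rpe65 (225 CPM) stood at about the level of those classes. Otx2, an RPE transcription factor, was higher, at 207 CPM against 32.0 CPM in surface epithelium-like and 33.8 CPM in macrophage-like cells, and Mitf, a regulator of pigment genes, stood at 103 CPM against 7.10 and 20.1 CPM. Markers of other cell types were present as well. The 10 fibroblast markers summed to 1902 CPM, against 51.3 CPM in NaIO3 RPE-like cells, and the 10 mural markers to 2129 CPM against 245 CPM, with 0 markers of either list at 0; both lists share collagen or contractile genes with the matrix list. Mural cells were the class with the highest marker score of the cluster (mean log2 1.38), yet their defining marker Rgs5 was at 2.18 CPM and the fibroblast marker Dcn at 19.4 CPM. The 7 melanocyte markers summed to 53.2 CPM, below the 96.2 CPM of RPE-like cells. The part of these cell types in the levels below was not tested.

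For 4 genes the RefSeq promoter window, from 250 bases before to 50 bases after the annotated start, held a match to the 10-base p53 half-site consensus. The sequences are printed to show the matching letters, and binding of p53 to them was not tested. RefSeq promoters (GRCm38.p6) were found for 8 of the 10 genes, and 4 of these 8 held a match. Of all 27025 genes with such a window 9.55% held a match, as did 8.36% of all 32851 windows of the same length. The consensus reads the same on both strands, so 1 scan covers both. Capitals mark the half-site, each stretch runs 5′ to 3′ on the gene's strand, and a match is a description of letters, not a bound site. The 4 genes with a match were those whose NaIO3 ratio in RPE-like cells, given below, was under 1.5-fold, and the 4 scanned genes without one (Phlda3, Eda2r, Gdf15 and Sesn2) had the larger ratios. Zmat3 and Trp53inp1, which had no window, also passed 1.5-fold. A link between match and ratio was not tested, and sequence outside the windows was not scanned. The Bax stretch lies at chr7:45467040-45467148 (minus strand) with the half-site starting 201 bases before the start, the Mdm2 stretch at chr10:117710885-117710994 (minus strand, 186 bases before), the Ccng1 stretch at chr11:40755412-40755521 (minus strand, 185 bases before) and the Aen stretch at chr7:78895927-78895956 (plus strand, 121 bases before, within an annotated exon). In another RefSeq window of Aen the same half-site lies after the start.
Bax: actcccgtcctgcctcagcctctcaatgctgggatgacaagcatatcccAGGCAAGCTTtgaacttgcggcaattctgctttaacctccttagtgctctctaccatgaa
Mdm2: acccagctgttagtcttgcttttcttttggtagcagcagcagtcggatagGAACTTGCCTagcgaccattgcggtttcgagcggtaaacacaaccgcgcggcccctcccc
Ccng1: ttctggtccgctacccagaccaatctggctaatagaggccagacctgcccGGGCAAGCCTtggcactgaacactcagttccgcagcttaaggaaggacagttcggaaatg
Aen: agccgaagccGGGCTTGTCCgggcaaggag

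In RPE-like cells all 10 genes had a higher level in the NaIO3 library than in the PBS library, between 1.23-fold for Ccng1 and 37.0-fold for Eda2r. The 2 largest ratios were those of Eda2r and Gdf15, both under 1 CPM in PBS. At 1.5-fold or more, 6 of 10 genes were higher and 0 lower, where 23.7% of the 14166 genes measured (at least 20 UMIs over both groups) were higher and 6.93% lower. The median log2 ratio was 0.72 for the 10 genes and 0.18 over all genes. The lower bound of the counting interval was above 1 for all 10. How many of all genes had such an interval was not counted, here or in the comparisons below.

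Mdm2 (chr10:117688875-117710758, GRCm38), the ubiquitin ligase that keeps p53 low, stood at 20.7 CPM (19.3 to 22.1) in PBS and 29.9 CPM (27.9 to 32.1) in NaIO3 RPE-like cells, a ratio of 1.45 (1.31 to 1.59). Ccng1 (chr11:40748552-40755311), a cyclin G that works with a phosphatase on Mdm2, stood at 23.5 CPM (22.1 to 25) and 29.0 CPM (27.0 to 31.1), a ratio of 1.23 (1.12 to 1.35). Neither of these feedback genes reached 1.5-fold. Zmat3 (chr3:32334792-32366014), an RNA-binding zinc finger protein, went from 12 CPM (11 to 13.1) to 19.6 CPM (18.0 to 21.4), a ratio of 1.64 (1.45 to 1.85). Trp53inp1 (chr4:11156431-11174379), a nuclear protein that acts in p53 signalling and autophagy, went from 4.10 CPM (3.51 to 4.76) to 6.84 CPM (5.89 to 7.90), a ratio of 1.67 (1.35 to 2.06). Both passed 1.5-fold, with lower bounds under it.

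Among the cell death genes, Bax (chr7:45461697-45466898), which forms pores in the outer mitochondrial membrane, stood at 54.0 CPM (51.8 to 56.3) in PBS and 77.3 CPM (74.0 to 80.6) in NaIO3, a ratio of 1.43 (1.35 to 1.52). Aen (chr7:78895854-78911209), a nuclease of apoptotic cells, stood at 14.8 CPM (13.7 to 16.0) and 19.8 CPM (18.2 to 21.6), a ratio of 1.34 (1.19 to 1.5). Both differences were larger than counting error and short of 1.5-fold. Eda2r (chrX:97333840-97377216), a death receptor of the TNF receptor family, had 1 UMI over 3405 PBS cells and 24 UMIs over 2254 NaIO3 cells, that is 0.0239 and 0.882 CPM, and its ratio of 37.0 ran from 6.03 to 1521. The size of the Eda2r ratio is therefore hardly determined. The Bax gene overlaps Gm45808, and Sesn2 overlaps Gm12981, on the same strand, and their shared reads cannot be told apart here.

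Phlda3 (chr1:135766119-135769136), which competes with the kinase Akt for membrane lipids, went from 10.8 CPM (9.81 to 11.8) to 34.3 CPM (32.2 to 36.6), a ratio of 3.19 (2.84 to 3.57). Gdf15 (chr8:70629393-70632456), a secreted stress hormone, went from 0.954 CPM (0.682 to 1.30) to 6.51 CPM (5.58 to 7.54), a ratio of 6.82 (4.82 to 9.87). Sesn2 (chr4:132492032-132510501), an inhibitor of the growth kinase mTORC1, went from 7.20 CPM (6.41 to 8.06) to 13.7 CPM (12.4 to 15.2), a ratio of 1.90 (1.63 to 2.22). These 3 were the genes whose whole interval lay above 1.5-fold, together with Eda2r. For reference, Cdkn1a, the cell cycle inhibitor, stood at 5.15 and 50.9 CPM (9.88-fold) and Trp53, the gene of p53 itself, at 12.7 and 22.1 CPM (1.74-fold).

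**Figure D1:**
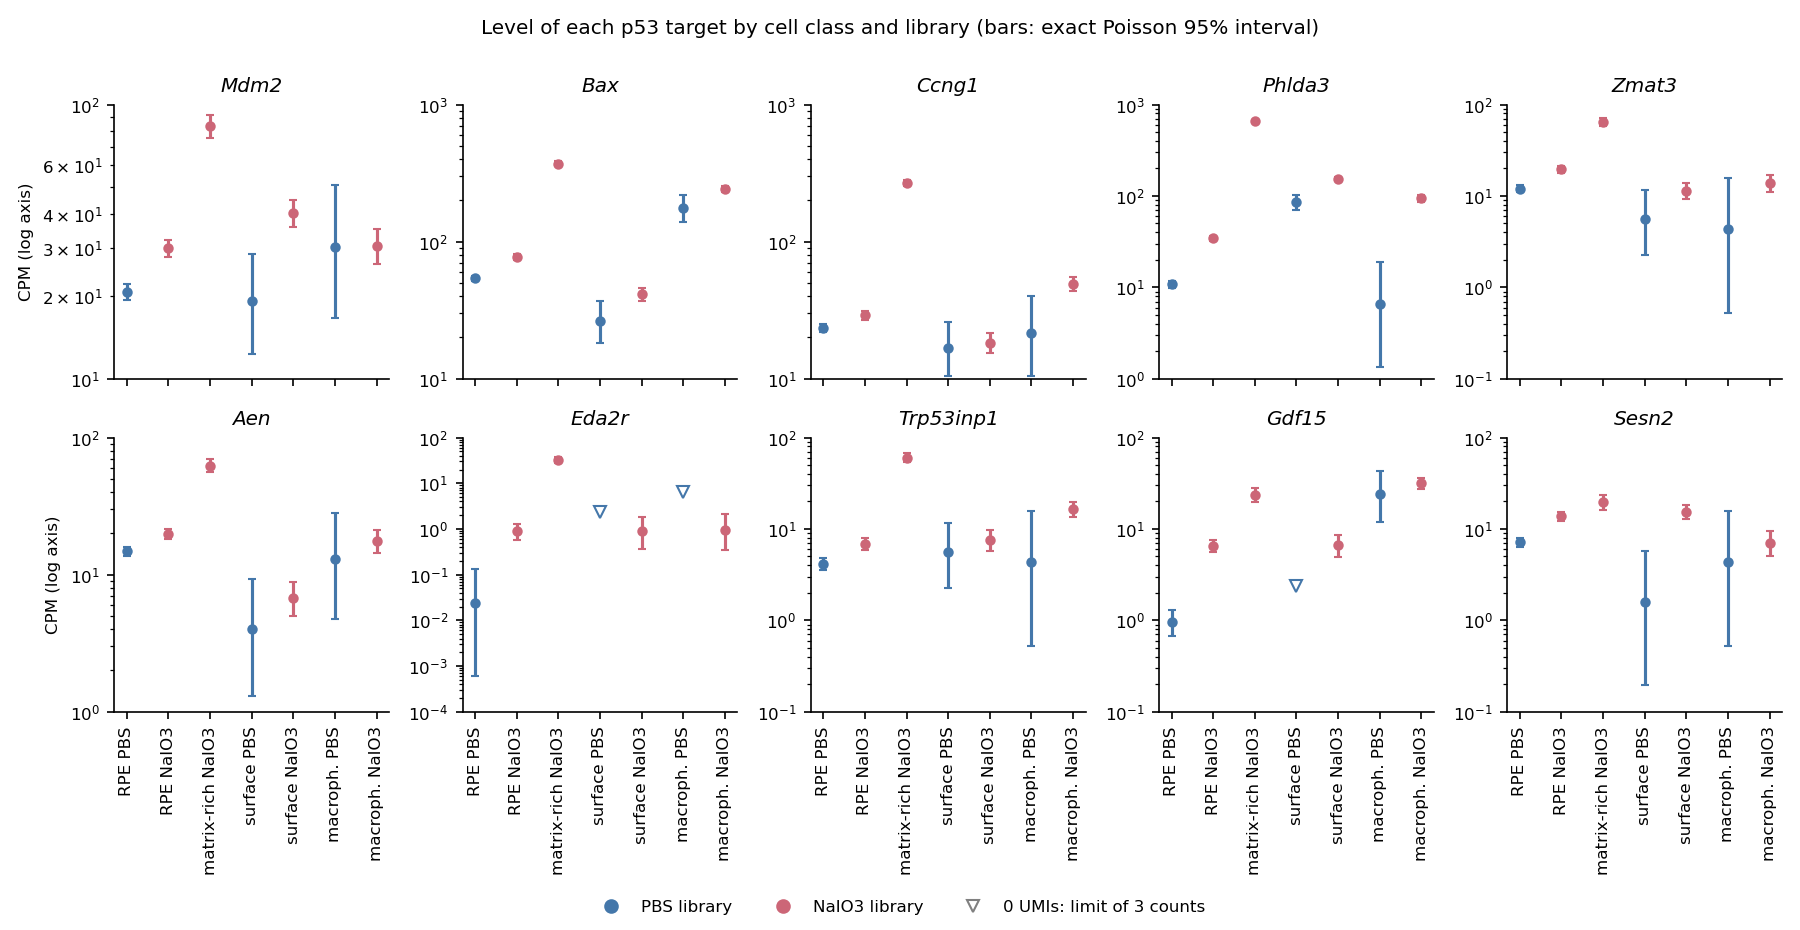
Level of each of the 10 genes (CPM of summed UMIs, log axis, 1 panel per gene) in RPE-like, matrix-rich pigment, surface epithelium-like and macrophage-like cells of the PBS and NaIO3 libraries; points are levels and bars are exact Poisson 95% intervals of counting error. For 9 of the 10 genes the matrix-rich pigment cells are at least 1.5-fold above the RPE-like cells of the same library, as with Phlda3 at 664 against 34.3 CPM.

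The RPE-like cells fell into 4 clusters of PBS cells and 4 of NaIO3 cells, with no cluster holding 50 or more cells of each library. For 7 of the 10 genes all 4 NaIO3 clusters lay above all 4 PBS clusters, where 19.1% of the genes measured did so and 4.79% did so in the opposite direction. Phlda3 ranged from 8.78 to 12.2 CPM over the PBS clusters and from 30.6 to 79.5 CPM over the NaIO3 clusters. Gdf15 ranged from 0.801 to 1.45 CPM and from 2.74 to 27.6 CPM. The NaIO3 clusters were thus further apart, in ratio, for Gdf15 than for Phlda3. Ccng1 overlapped, with 19.1 to 27.2 CPM in PBS and 26.3 to 58.0 CPM in NaIO3 clusters, as did Aen (9.69 to 19.7 and 17.5 to 33.7 CPM) and Sesn2 (3.64 to 10.6 and 9.06 to 18.2 CPM). Clusters of 1 library are not replicates of the treatment.

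A single NaIO3 cluster of 93 cells had the highest level of every gene but Sesn2. The share of all genes with their highest level in this cluster was not counted. It was also the RPE-like cluster with the highest median depth (17492 UMIs) and the highest Mki67, a gene of dividing cells, at 29.3 CPM. In this cluster Bax reached 141 CPM, Ccng1 58.0 CPM and Trp53inp1 14.4 CPM. Without it, the log2 ratio of Gdf15 between NaIO3 and PBS RPE-like cells went from 2.77 to 2.39 and that of Phlda3 from 1.67 to 1.53, and the same number of genes, 6, passed 1.5-fold. The levels of 1 small cluster thus did not set the count.

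**Figure D2:**
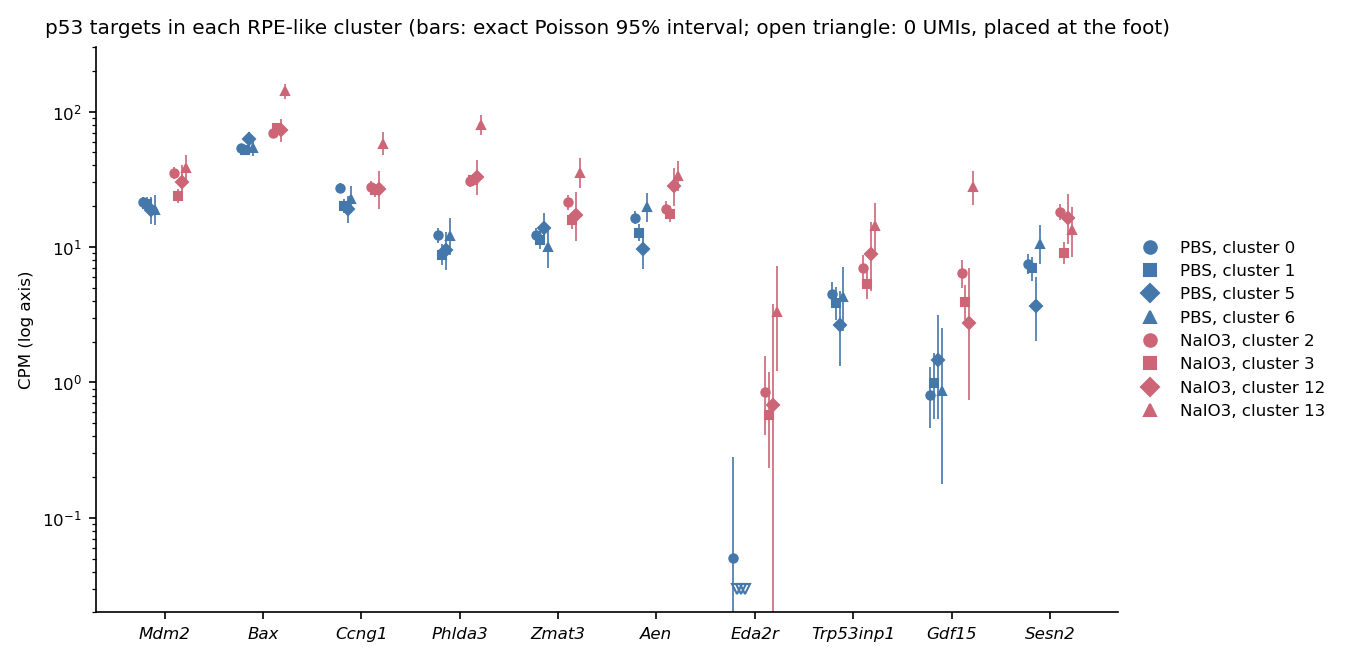
Level of each gene (CPM, log axis) in the 8 RPE-like clusters, 4 of PBS cells and 4 of NaIO3 cells; each point is 1 cluster and bars are exact Poisson 95% intervals of counting error. Groups of points do not overlap for 7 genes and overlap for Ccng1, Aen and Sesn2.

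Free RNA from lysed cells also enters droplets, and Cdkn2a gives a value that bears on it. Cdkn2a, a leading gene of the matrix-rich pigment cells (505 CPM), had 0 UMIs among 41925299 in PBS RPE-like cells and was found in NaIO3 cells of each other class (RPE-like 10.1 CPM, surface epithelium-like 11.8 CPM, macrophage-like 15.6 CPM). The RPE-like level was 2.01% of the matrix-rich level; the same share was 2.04% for Cdkn2b, 1.47% for Col1a1 and 2.65% for Cthrc1. At 2.01% of their matrix-rich levels, Phlda3 would account for 13.3 of the 34.3 CPM in NaIO3 RPE-like cells, Eda2r for 0.649 of 0.882 CPM and Ccng1 for 5.39 of 29.0 CPM. With that share taken off, the ratio of NaIO3 to PBS was 1.95 for Phlda3, 1.0 for Ccng1, 6.32 for Gdf15, 1.85 for Sesn2, 1.37 for Mdm2 and 1.37 for Trp53inp1. Trp53inp1 then fell short of 1.5-fold, and 5 of 10 genes passed. At the Cthrc1 share 3 of 10 passed, Phlda3, Gdf15 and Sesn2, with log2 ratios of 0.64, 2.62 and 0.87, Ccng1 was at -0.11, and the Eda2r UMIs were all accounted for. In surface epithelium-like cells the Cdkn2a share left 5 genes past 1.5-fold, with Bax at 1.23 and Aen at 1.31, and in macrophage-like cells it left 4, with Sesn2 at 1.48. How much of Cdkn2a in these cells was free RNA was not tested.

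Markers of other cells moved with the treatment in the same way. In RPE-like cells the 15 macrophage markers summed to 225 CPM in PBS and 1875 CPM in NaIO3, and the 13 surface epithelium markers to 98.0 and 1825 CPM, with 0 markers of either list at 0. Mitochondrial counts made up a median of 8.34% of a PBS and 11.8% of a NaIO3 RPE-like cell. Their part in the gene levels was not tested.

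Matrix-rich pigment cells had the highest level of 9 of the 10 genes among the 7 groups compared, the exception being Gdf15 (31.8 CPM in NaIO3 macrophage-like cells). The share of all genes with their highest level in this group was not counted. For Sesn2 the interval overlapped that of NaIO3 surface epithelium-like cells, and for Gdf15 that of NaIO3 macrophage-like cells. With no doublet removal the cluster held 251 cells, of which 2.39% were among the removed doublets. Against RPE-like cells of the same library, 9 of 10 genes were at least 1.5-fold higher and 0 lower, where 34.1% of 13526 genes were higher and 20.4% lower. The median log2 ratio was 2.06 for the 10 genes and 0.20 over all genes. Together the 10 genes took 1649 CPM in matrix-rich pigment cells, against 238 CPM in NaIO3 and 148 CPM in PBS RPE-like cells.

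Phlda3 stood at 664 CPM (643 to 686) in matrix-rich pigment cells, 19.3-fold (18.0 to 20.8) above NaIO3 RPE-like cells. Eda2r stood at 32.3 CPM (27.7 to 37.4), 36.6-fold (23.8 to 58.6) higher, and it is the gene whose detection was nearly limited to these cells: 178 UMIs were counted here and 24, 7 and 6 in NaIO3 RPE-like, surface epithelium-like and macrophage-like cells. Ccng1 stood at 268 CPM (255 to 282), a ratio of 9.26 (8.49 to 10.1), although it was the gene that differed least between treatments in RPE-like cells. Trp53inp1 stood at 60.3 CPM (53.9 to 67.1), a ratio of 8.81 (7.34 to 10.6).

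Bax stood at 370 CPM (354 to 386) in matrix-rich pigment cells, 4.79-fold (4.50 to 5.09) above NaIO3 RPE-like cells. Zmat3 (64.6 CPM), Aen (62.4 CPM) and Mdm2 (83.3 CPM) lay 3.29-fold (2.87 to 3.77), 3.15-fold (2.74 to 3.61) and 2.78-fold (2.48 to 3.12) above them. The ratio of Mdm2, the inhibitor of p53, was thus smaller than those of Ccng1 and Phlda3, with intervals that do not overlap. Gdf15 stood at 23.8 CPM (19.9 to 28.2), a ratio of 3.65 (2.89 to 4.60). Sesn2 stood at 19.6 CPM (16.1 to 23.7), a ratio of 1.43 (1.14 to 1.78), the one gene under 1.5-fold. For Gdf15 and Sesn2, the pair that ATF4 also controls, the intervals of the ratios do not overlap in the whole cluster, while those of the levels do.

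Fibroblast-like cells, the other matrix-producing class, had 47 cells in the NaIO3 library, and all 10 genes were at least 1.5-fold higher in matrix-rich pigment cells, where 23.3% of 11113 genes were higher and 24.5% lower. The ratio was 8.78 (5.12 to 16.5) for Ccng1, 3.72 (2.96 to 4.73) for Phlda3, 3.35 (2.51 to 4.57) for Bax and 2.08 (1.29 to 3.61) for Mdm2. Eda2r had 178 UMIs against 0, which is 4.58-fold higher against a floor of 3 counts over the group (the exact interval starts at 3.68). The lower bound was above 1 for all 10, and with 47 cells the intervals were wide.

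**Figure D3:**
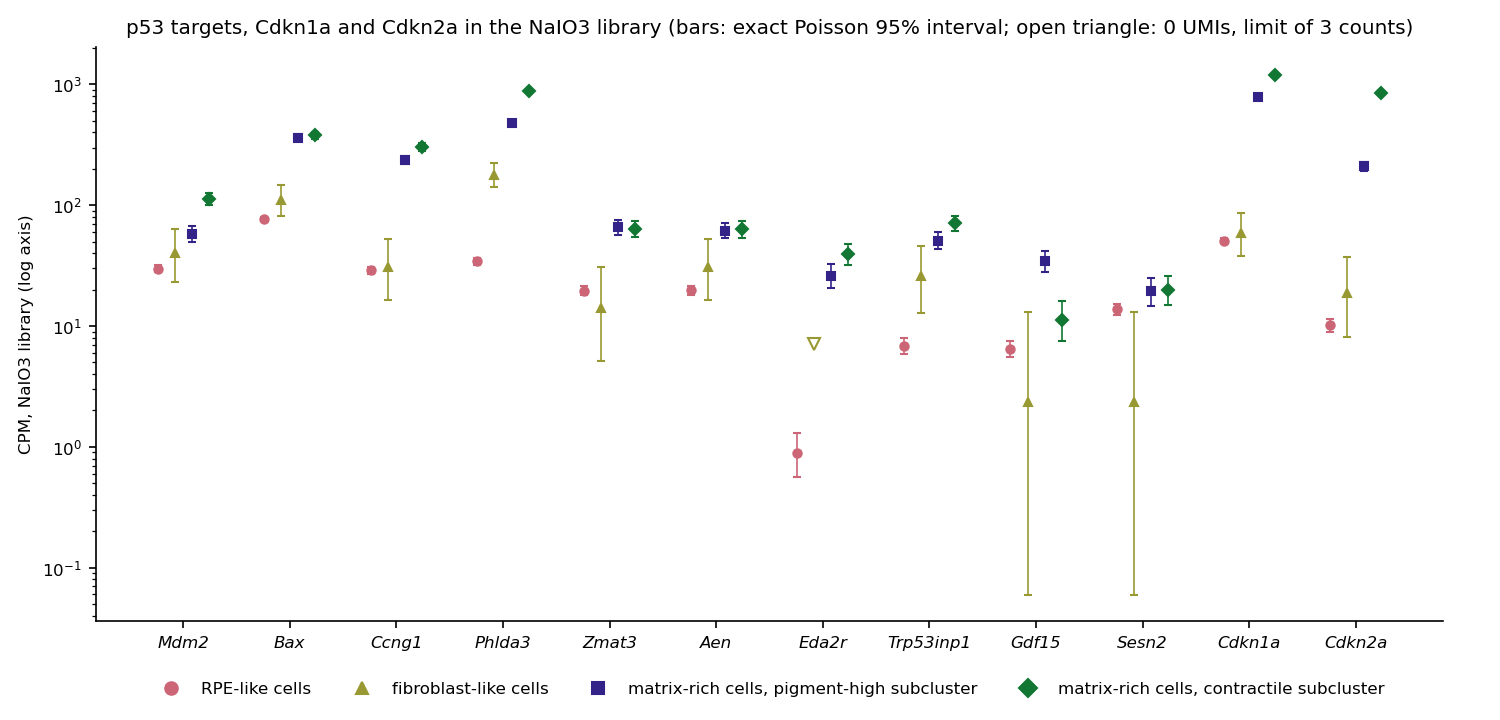
Level (CPM, log axis) of the 10 genes with Cdkn1a and Cdkn2a in NaIO3 RPE-like cells, NaIO3 fibroblast-like cells and the pigment-high and contractile subclusters of the matrix-rich pigment cells; bars are exact Poisson 95% intervals of counting error. Phlda3 and Mdm2 are higher in the contractile subcluster (881 and 112 CPM) and Gdf15 is higher in the pigment-high one (34.6 CPM).

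At a finer clustering (Leiden resolution 2) the matrix-rich pigment cells split into a pigment-high subcluster of 124 cells and a contractile subcluster of 88 cells. Tyrp1, a melanin enzyme, stood at 420 and 51.5 CPM in the 2 subclusters, Otx2, an RPE transcription factor, at 279 and 124 CPM, and Col1a1, a fibrillar collagen chain, at 267 and 1152 CPM. The pigment label thus fits the first subcluster and hardly the second. Phlda3 was 476 CPM (451 to 501) in the pigment-high and 881 CPM (845 to 918) in the contractile subcluster, Mdm2 58.0 CPM (49.6 to 67.4) and 112 CPM (99.8 to 126), and Eda2r 26.1 CPM (20.6 to 32.6) and 39.4 CPM (32.1 to 47.9). Gdf15 ran the other way, with 34.6 CPM (28.2 to 42.0) and 11.3 CPM (7.58 to 16.3). Aen (61.7 and 63.2 CPM) and Sesn2 (19.3 and 19.9 CPM) differed by less than counting error. Each subcluster on its own had 9 genes at least 1.5-fold above NaIO3 RPE-like cells and 0 lower, where 31.5% of genes were higher for the pigment-high and 34.7% for the contractile subcluster (19.2% and 24.7% lower). Gdf15 was 5.31-fold above RPE-like cells in the pigment-high and 1.74-fold in the contractile subcluster, where Sesn2 was at 1.45-fold.

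Counted per cell, more of the 10 genes were detected in matrix-rich pigment cells than in the other classes. This goes with the higher level of the single genes; whether they share cells beyond that was not tested. With every cell thinned to 3000 UMIs, 28.8% of them (61 of 212, Clopper-Pearson interval 22.8 to 35.4%) had a UMI of at least 4 of the 10 genes, against 0.0588% of PBS and 0.266% of NaIO3 RPE-like cells and 1.72% of NaIO3 macrophage-like cells. The mean number of the 10 genes with a UMI was 2.78 in matrix-rich pigment cells, 0.634 in NaIO3 and 0.409 in PBS RPE-like cells. Without thinning the medians were 7, 2 and 1. Thinning left out 2 PBS RPE-like cells that were shallower. Of the 6 NaIO3 RPE-like cells with at least 4 of the genes, 4 were in the cluster with the highest Mki67.

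**Figure D4:**
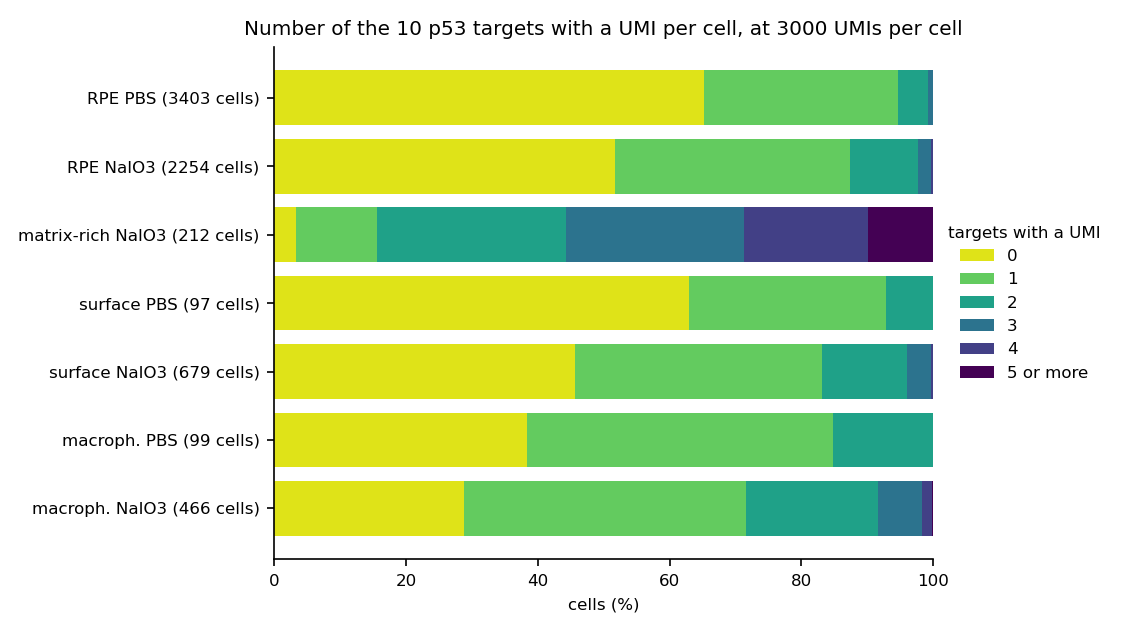
Share of cells (percent) by the number of the 10 genes with at least 1 UMI, each cell thinned to 3000 UMIs, for the 7 groups of cells. In matrix-rich pigment cells 3.30% had none of the genes, against 65.2% of PBS and 51.7% of NaIO3 RPE-like cells.

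Phlda3 had a UMI in 75.5% of the thinned matrix-rich pigment cells, 8.61% of NaIO3 and 3.03% of PBS RPE-like cells. Ccng1 had one in 48.1%, 7.41% and 6.70%, and Eda2r in 4.72%, 0.266% and 0%, a depth at which a low gene is mostly missed. Without thinning Eda2r had a UMI in 1 of 3405 PBS RPE-like cells, in 46.7% of matrix-rich pigment and in 0.976% of NaIO3 RPE-like cells, and Phlda3 in 29.1% of NaIO3 RPE-like cells. These shares followed the order of the CPM levels. Matrix-rich pigment cells with a Cdkn2a UMI at this depth (122 cells) had 2.10 Phlda3 UMIs per cell (1.85 to 2.37), and those without (90 cells) had 1.38 (1.15 to 1.64). The Phlda3 intervals do not overlap; before thinning the cells with Cdkn2a also had a higher median depth (26975 against 22024.5 UMIs). Mdm2 was at 0.303 and 0.289 UMIs per cell with overlapping intervals. Gdf15 (0.057 with and 0.156 without Cdkn2a) and Sesn2 (0.041 and 0.089) went the other way, with intervals that overlap. The split follows the subclusters in part, since Cdkn2a stood at 845 CPM in the contractile and 210 CPM in the pigment-high one.

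In surface epithelium-like cells 7 of 10 genes were at least 1.5-fold higher in NaIO3 and 0 lower, where 29.3% of 11057 genes were higher and 11.2% lower. The median log2 ratio was 0.80 for the 10 genes, with those at 0 UMIs in PBS taken at their bound, and 0.21 over all genes. With only 97 PBS cells, the interval was above 1 for 5 of the 10.

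Phlda3 stood at 85.0 CPM (69.6 to 103) in PBS and 154 CPM (146 to 163) in NaIO3 surface epithelium-like cells, a ratio of 1.82 (1.49 to 2.24), and its NaIO3 level was 4.49-fold above that of RPE-like cells. Sesn2 went from 1.60 CPM (0.194 to 5.79) to 15.5 CPM (12.8 to 18.5), a ratio of 9.65 (2.61 to 80.6). Mdm2 went from 19.2 CPM (12.3 to 28.6) to 40.1 CPM (35.8 to 44.7), a ratio of 2.08 (1.37 to 3.30). Gdf15 had 0 UMIs in PBS, which allows up to 2.40 CPM, and 6.59 CPM (4.92 to 8.65) in NaIO3. This is 2.74-fold higher against a floor of 3 counts over the group (the exact interval starts at 2.15). Bax, at 26.4 and 41.2 CPM, had a ratio of 1.56 (1.09 to 2.30), and Ccng1, at 16.8 and 18.3 CPM, could not be told from 1 (0.684 to 1.81). The ratios of Zmat3 (2.03), Aen (1.68) and Trp53inp1 (1.36) had intervals that include 1. Eda2r had 0 UMIs in PBS, and the 2.40 CPM this allows is above its NaIO3 level of 0.888 CPM, so it has no ratio.

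The makeup of the class differed between libraries: of the PBS cells 79 were in 1 cluster, which also held 422 NaIO3 cells, and 18 in the other. The other held 257 NaIO3 cells, in which Phlda3 stood at 284 CPM, and no ratio was taken there. Of the 106 Phlda3 UMIs of PBS cells in the class, 34 were in the shared cluster, so most came from the 18 PBS cells of the other. A higher Phlda3 level in NaIO3 is thus not shown for that other cluster. Within the shared cluster Phlda3 was 33.4 CPM in PBS and 91.3 CPM in NaIO3, a ratio of 2.73 (1.93 to 3.99), and Mdm2 had a ratio of 2.22 (1.41 to 3.71). Trp53inp1 had a ratio of 0.767 there. Gdf15, with 19 UMIs against 0, was 1.21-fold higher against the floor of 3 counts (the exact interval starts at 0.894), so its call was lost. In this cluster 6 genes passed 1.5-fold, where 30.5% of 9590 genes were higher and 13% lower. The interval was above 1 for 3 of the 10 (Mdm2, Phlda3 and Sesn2) and included 1 for Bax, Zmat3 and Aen. Against RPE-like cells of the same library, 1 gene (Phlda3) was at least 1.5-fold higher and 4 (Ccng1, Zmat3, Bax and Aen, at 0.630, 0.581, 0.533 and 0.339 of the RPE-like level) were lower, beside 24.4% and 44.8% of 13643 genes. Phlda3 was thus the only one of the 10 genes for which surface epithelium stood at least 1.5-fold above the RPE.

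In macrophage-like cells 5 of 10 genes were at least 1.5-fold higher in NaIO3 and 0 lower, where 18.1% of 10341 genes were higher and 26.1% lower. The median log2 ratio was 0.58 for the 10 genes and -0.12 over all genes. The interval was above 1 for 4 of the 10.

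Phlda3 stood at 6.50 CPM (1.34 to 19.0) in PBS and 94.4 CPM (86.9 to 102) in NaIO3 macrophage-like cells, a ratio of 14.5 (4.94 to 70.6). Ccng1 went from 21.7 CPM (10.4 to 39.9) to 49.2 CPM (43.8 to 55.0), a ratio of 2.27 (1.22 to 4.78). Trp53inp1 had a ratio of 3.79 (1.02 to 31.8) and Bax, at 176 and 243 CPM, a ratio of 1.38 (1.1 to 1.75). These 4 are the genes with an interval above 1. The Mdm2 levels, 30.3 CPM (16.6 to 50.9) and 30.5 CPM (26.3 to 35.1), gave a ratio of 1.01 (0.585 to 1.87). Gdf15 was already present in PBS, at 23.8 CPM (11.9 to 42.7), and stood at 31.8 CPM (27.5 to 36.5) in NaIO3, with a ratio of 1.33 (0.729 to 2.71). Sesn2 (1.62), Zmat3 (3.20) and Aen (1.35) had intervals that include 1. Eda2r had 0 UMIs in PBS, which allows up to 6.50 CPM, above its NaIO3 level of 0.958 CPM.

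Here too the clusters differed: 82 of the 99 PBS cells were in 1 cluster, which held 200 NaIO3 cells. Within it Phlda3 was 5.28 CPM in PBS and 40.9 CPM in NaIO3, a ratio of 7.74 (2.09 to 64.7), Ccng1 had a ratio of 1.70 (0.895 to 3.65), Trp53inp1 of 1.99 (0.501 to 17.2) and Bax of 1.11 (0.878 to 1.43). In this cluster 4 genes passed 1.5-fold, where 19.6% of 8447 genes were higher and 23.4% lower. The interval was above 1 for 1 of the 10, Phlda3. With macrophage-like cells set against RPE-like cells of the NaIO3 library, 5 genes were at least 1.5-fold higher and 1 lower, beside 21.8% and 45.2% of 13459 genes. The higher ones were Gdf15 (4.88-fold), Bax (3.14-fold), Phlda3 (2.75-fold), Trp53inp1 (2.40-fold) and Ccng1 (1.70-fold), and the lower one was Sesn2, at 0.512 of the RPE-like level.

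**Figure D5:**
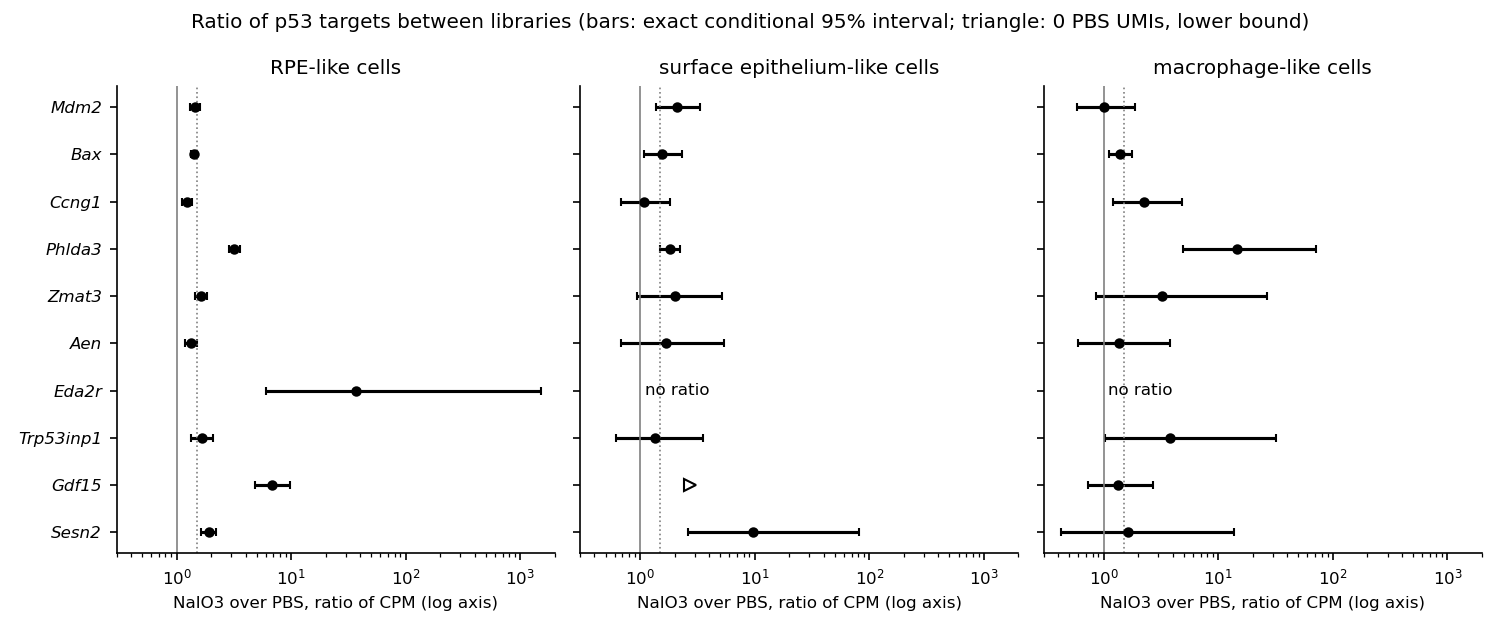
Ratio of the NaIO3 to the PBS level (log axis) of each gene in RPE-like, surface epithelium-like and macrophage-like cells. Bars are exact conditional binomial 95% intervals, the triangle is a ratio against a floor of 3 counts and the dotted line marks 1.5-fold. Phlda3 is above 1.5-fold in all 3 classes, at 3.19, 1.82 and 14.5, and Ccng1 is near 1 in surface epithelium-like cells.

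Phlda3 was the only one of the 10 genes that was at least 1.5-fold higher with an interval above 1 in RPE-like, surface epithelium-like and macrophage-like cells. For surface epithelium-like cells its ratio was taken over the class and in the shared cluster, not in the cluster with 18 PBS cells. Most PBS Phlda3 UMIs of the class lay in that cluster, and a rise is not shown there. Whether the ratios of the 3 classes differ was not tested. The same classes differed in Cdkn1a by 9.88-fold, 2.49-fold and 2.24-fold.

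Of the other p53 targets, a list of 36 genes that includes Cdkn1a, 33 were measured in RPE-like cells. At 1.5-fold or more 15 were higher and 0 lower, where 23.7% of all genes measured were higher and 6.93% lower. The median log2 ratio of the 33 was 0.49. Pmaip1 and Bbc3, which encode BH3-only proteins that release Bax, stood at 1.62 against 0.167 CPM and 2.24 against 0.262 CPM in NaIO3 and PBS, ratios of 9.69 (4.33 to 25.5) and 8.55 (4.46 to 18.0). Gadd45a, a growth arrest gene, had a ratio of 4.34 (3.39 to 5.61). Sfn, at 107 against 4.51 CPM, stood at 3900 CPM in NaIO3 surface epithelium-like cells; the part of free RNA in its ratio was not tested. In matrix-rich pigment cells 25 of 33 were higher than in NaIO3 RPE-like cells and 2 lower, where 34.1% of all genes measured were higher and 20.4% lower. Pmaip1 was at 28.3-fold (20.5 to 39.9), Bbc3 at 12.8-fold (9.46 to 17.5) and the death receptor gene Fas at 12.2-fold (9.07 to 16.6).

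In surface epithelium-like cells 17 of 30 measured other targets were higher and 2 lower, where 29.3% of all genes measured were higher and 11.2% lower. Rrm2b, a ribonucleotide reductase subunit, had a ratio of 5.94 (3.93 to 9.43) and Gadd45a of 0.358 (0.304 to 0.423). In macrophage-like cells 10 of 29 were higher and 12 lower, where 18.1% of all genes measured were higher and 26.1% lower. Btg2, a gene that restrains proliferation, was at 0.228 (0.200 to 0.261) and Perp at 3.75 (1.88 to 8.74). Perp stood at 65.0 CPM in NaIO3 macrophage-like cells and at 2126 CPM in NaIO3 surface epithelium-like cells. The part of free RNA in its ratio was not tested. The wider list thus had no common direction in macrophage-like cells. Of p53 and its regulators, 4 of 10 measured were higher in RPE-like cells and 0 lower, beside 23.7% and 6.93% of all genes measured. Mdm4, the partner of Mdm2 in holding p53 down, had a ratio of 1.20. Of the ATF4 list, which includes Sesn2 and Gdf15, 6 of 11 were higher in RPE-like cells and 0 lower, beside the same shares of all genes. Chac1 had a ratio of 4.97 and Asns, the asparagine synthetase gene, of 5.24.

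Over the 10 groups of at least 50 cells, the genes whose log2 profile was most like the mean of the 10 were Psmd1 (Pearson r 0.954), Timp1 (0.939), Ssc5d (0.938), Loxl3 (0.937) and Ip6k3 (0.936), out of 11974 genes ranked. All 5 were higher in matrix-rich pigment cells than in NaIO3 RPE-like cells, such as Psmd1 at 663 against 89.5 CPM and Timp1 at 383 against 13.6 CPM. The groups share libraries and depth. Each of the 10 genes correlated with the mean of the others at r between 0.491 (Phlda3) and 0.905 (Eda2r) over these groups. Without the matrix-rich pigment cells, over 9 groups, these values ran from -0.02 (Phlda3) to 0.61 (Eda2r), so the likeness of the 10 profiles rests largely on that 1 group.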

How the data were processed

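Pooled RPE and choroid cells were sequenced by the authors in droplets, 1 library per group. The files hold deposited raw UMI counts, made with Cell Ranger 3.0.2 on mm10, per the submitters' processing notes; annotation release and strand setting: not given in the sources used here. A barcode was kept with 500 or more genes and no more than 25% mitochondrial counts, which removed 231 PBS and 114 NaIO3 barcodes. Doublet scores from simulated doublets were ranked per library and the top 0.8% per 1000 barcodes removed (171 and 132). Before filtering, barcodes had 2979 to 63062 UMIs in PBS and 4217 to 76174 in NaIO3.

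Both libraries were clustered together on 2000 variable genes without the p53 genes, 30 principal components, 15 neighbours and Leiden resolution 1 (leidenalg 0.10.2, seed 1). A class name required a mean log2 fold of 1 over its markers, 3 markers at 2-fold and the most markers of any class among the 10 leading genes. Matrix-rich pigment cells needed 3 pigment and 7 matrix markers at 2-fold and an RPE mean below 1. The naming baseline was changed from the median of all clusters to that of the clusters of the library giving most cells, and the thresholds for matrix-rich cells were set, after cluster names and a first look at the gene levels had been seen. The genes and lists were chosen with earlier results of these data known.

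Counts were summed per class and library and given as CPM. Levels carry exact Poisson, ratios exact conditional binomial and shares exact Clopper-Pearson 95% intervals (scipy 1.17.1). For a count of 0 the limit is 3 counts over the group. No test was made. A gene was measured with at least 20 counts over the 2 groups compared and counted as higher or lower at 1.5-fold. The ratio code was tested on simulated data. Other p53 targets were named from the 8 past 1.5-fold with the interval bound farthest from 1, and which of the 8 to print was chosen after seeing their values. The similar genes were the 5 with the highest Pearson r of log2(CPM + 5) among genes with at least 100 counts. Mdm4, Chac1 and Asns were named after their values were seen. Gene coordinates are from GENCODE M21 (GRCm38).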

Additional observations from a re-analysis of the deposited data

How the results depend on the processing

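No ratio of the 10 genes changed direction from a called value under any setting tried. The number of genes at least 1.5-fold higher or lower moved by more than 1.5 times in these cases. In RPE-like cells it went from 6 to 3 when the naming baseline was the median of all clusters and no doublets were removed; no matrix-rich pigment class was found then. It also went to 3 with free RNA of matrix-rich cells subtracted at the Cthrc1 share. In macrophage-like cells it went from 5 to 9 with mean UMIs per cell in place of CPM, a scale that keeps the difference in depth. For surface epithelium-like over RPE-like cells it went from 5 to 3 with the median log2 ratio of all genes set to 0, and to 3 with each library clustered alone. In RPE-like cells the count was 4 with that median set to 0 and 5 with free RNA subtracted. The number of NaIO3 matrix-rich pigment cells was 212, and over the settings that found the class it ran from 124 (Leiden resolution 2) to 305 (resolution 0.5, with 1 PBS cell); it was 139 with each library clustered alone and 246 with the p53 genes kept for clustering. Over all settings the NaIO3 ratio was above 1 in 178 of 180 values in RPE-like, 137 of 159 in surface epithelium-like and 138 of 159 in macrophage-like cells. Against RPE-like cells it was above 1 in 140 of 140 values for matrix-rich pigment, 75 of 130 for surface epithelium-like and 90 of 130 for macrophage-like cells. Of all genes measured at the main setting, 65.3% were above 1 in RPE-like, 63.4% in surface epithelium-like and 40.7% in macrophage-like cells. Against RPE-like cells the shares were 59.1% for matrix-rich pigment, 37.9% for surface epithelium-like and 35.1% for macrophage-like cells. The naming baseline, the subtraction of free RNA at the Cdkn2a or Cthrc1 share, the subclusters and the shared clusters were alternatives chosen after seeing the data. No paired analysis was possible because each group is 1 library.

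With 1 pool of 6 mice per group, treatment cannot be told apart from any difference between the pools or libraries. Counting intervals leave out the spread between animals. In PBS, 97 surface epithelium-like and 99 macrophage-like cells limit what ratios of low genes can show. The matrices hold only barcodes called as cells, so free RNA was read from cells and not from empty droplets. Cell classes rest on markers alone.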
